A study of Homo sapiens with 6 samples.

Results

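The hairpins of miR-424, miR-503, miR-542 and miR-450 form a cluster of microRNAs (miRNAs) on chromosome X. The cluster was followed in small RNA sequencing of MDA-MB-231, a cell line of triple-negative breast cancer. Its miRNAs were every row of the deposited table whose name begins with hsa-miR-424-, hsa-miR-503-, hsa-miR-450a, hsa-miR-450b- or hsa-miR-542-. This gave 7 of the 413 miRNAs. The 327 miRNAs tested were those that reached a normalized value of 10 in 3 or more libraries, and they included 6 of the 7. The study describes its 413 miRNAs as found in both treated and control cells. A miRNA without a row is therefore not shown to be unexpressed, and shares of all tested miRNAs hold within this set. The comparison was between cells given 2 µM Withaferin A (WA), a steroidal lactone of the plant Withania somnifera, for 24 h (n = 3) and control cells (n = 3). The labels call the controls cells without WA, and the study's methods give them 0.1% DMSO, so they are named vehicle here. All 6 libraries came from this 1 cell line. The study calls the replicates independent, but neither it nor the labels say that they were separate cultures, so p-values measure the spread between these libraries only.

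A miRNA is cut from a hairpin precursor, and either of the arms, 5p or 3p, can be loaded into Argonaute and pair with target mRNAs through its seed. The hairpins of this cluster lie near each other on the same strand, and miR-424-5p and miR-503-5p belong to the miR-15/16 family, known for restraining cyclins and other drivers of the cell cycle. miR-424 and miR-503 are also known for their rise during muscle differentiation and for remodelling of the mammary gland.

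In GRCh38 the 6 hairpins lie on the minus strand of chromosome X within 6527 bases, by the GENCODE release 44 annotation. Along the transcribed strand, MIR424 (chrX:134546614-134546711) comes first and MIR503 (chrX:134546328-134546398) follows after 215 bases. Both overlap the long noncoding RNA gene MIR503HG, MIR424 by 29 bases and MIR503 over its whole length. MIR542 (chrX:134541341-134541437) follows after 4890 bases, outside any other annotated gene. MIR450A2 (chrX:134540508-134540607), MIR450A1 (chrX:134540341-134540431) and MIR450B (chrX:134540185-134540262) form a tight group at the far end.

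The mature sequences of 6 of the 7 miRNAs were found in RefSeq (GRCh38.p14). They are shown 5′ to 3′ with the seed, bases 2 to 8, in capitals, because the results divide the miRNAs by hairpin and arm and because the seeds show which of them resemble each other.
hsa-miR-424-5p: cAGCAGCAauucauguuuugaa
hsa-miR-424-3p: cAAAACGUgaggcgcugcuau
hsa-miR-503-5p: uAGCAGCGggaacaguucugcag
hsa-miR-450a-5p: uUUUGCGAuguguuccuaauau
hsa-miR-450a-2-3p: aUUGGGGAcauuuugcauucau
hsa-miR-450b-5p: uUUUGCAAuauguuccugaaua

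miR-424-5p and miR-503-5p share 6 of 7 seed bases and differ by A8G, counted from the 5′ end with the base of miR-424-5p first. miR-450a-5p and miR-450b-5p also share 6 of 7 seed bases, differ by G7A with the base of miR-450a-5p first, and are identical at 16 of 22 positions. The mature miR-450a-5p sequence is the same in MIR450A1 and MIR450A2, so its reads cannot be assigned to either hairpin. Both arms of MIR424 were measured, and the hairpin is shown with the arms in capitals.
MIR424: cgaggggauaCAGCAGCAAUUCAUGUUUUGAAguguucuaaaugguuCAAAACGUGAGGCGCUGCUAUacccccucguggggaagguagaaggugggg

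Vehicle libraries held 710878 to 4778066 reads and WA libraries 156442 to 2232934. Values are read counts that the authors divided by a size factor of the library, called normalized values. Reads given here assume that the smallest step between values of a library is 1 read. WA replicate 3 stood apart from WA replicates 1 and 2, so each WA library is given on its own. Fold changes of cluster miRNAs that rest on it are given with and without it, and correlations with all 6 libraries only. CPM is the reads scaled to a common total over the table. The 5 miRNAs listed as high in MDA-MB-231 were all measured and together made up 316201 to 439822 CPM in vehicle and 240609 to 387345 in WA. Markers of other cell types also differed between the libraries. The 4 of 6 epithelial miRNAs in the table summed to 1891 CPM in vehicle replicate 1 and to 140 and 183 in vehicle replicates 2 and 3. They summed to 0 in WA replicates 1 and 2 and to 739 in WA replicate 3. The 2 of 6 stroma and muscle miRNAs in the table, miR-143-3p and miR-145-5p, summed to 16.9 to 36.6 CPM in vehicle, 876 and 1315 in WA replicates 1 and 2, and 20.2 in WA replicate 3. In the blood list 1 of 7 miRNAs, miR-486-5p, was in the table, at 360 to 909 CPM in vehicle and 0 to 729 in WA, and miR-122-5p of liver reached at most 11.3 CPM. The part of these differences in the results that follow was not tested.

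The miRNAs of the cluster differed from each other in their direction between the groups. miR-424-3p was lower in every WA library than in any vehicle library, miR-503-5p was lower in 2 of the 3, and miR-450b-5p and miR-450a-5p were far higher in WA replicates 1 and 2 and lower in WA replicate 3. With all 6 libraries, 0 of the 6 tested cluster miRNAs passed an adjusted p under 0.05 by limma, and over all 327 tested miRNAs 18 did, or 5.5%. At an unadjusted p under 0.05, miR-424-3p was the only one of the 6 that passed, beside 26.3% of all tested miRNAs. It no longer passed by limma with library-total or upper-quartile scaling, with thinning, with the replicate number as a block, or without any single library but vehicle replicate 2. The median log2 fold change was -0.01 over the 6 cluster miRNAs, with a range from -2.53 to 1.93, and -0.91 over all tested miRNAs.

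Taken library by library, 3 of the 6 were below all vehicle libraries in WA replicate 1, 2 in WA replicate 2 and 3 in WA replicate 3, where 51.4%, 50.5% and 35.5% of all tested miRNAs were. Above all vehicle libraries stood 3 of the 6 in WA replicate 1, 4 in WA replicate 2 and 1 in WA replicate 3, where 24.2%, 26% and 31.2% of all tested miRNAs were. The 2 miR-450 5p arms and miR-542-3p were the ones above in both WA replicates 1 and 2, and miR-424-3p was the one below in all 3.

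**Figure D1:**
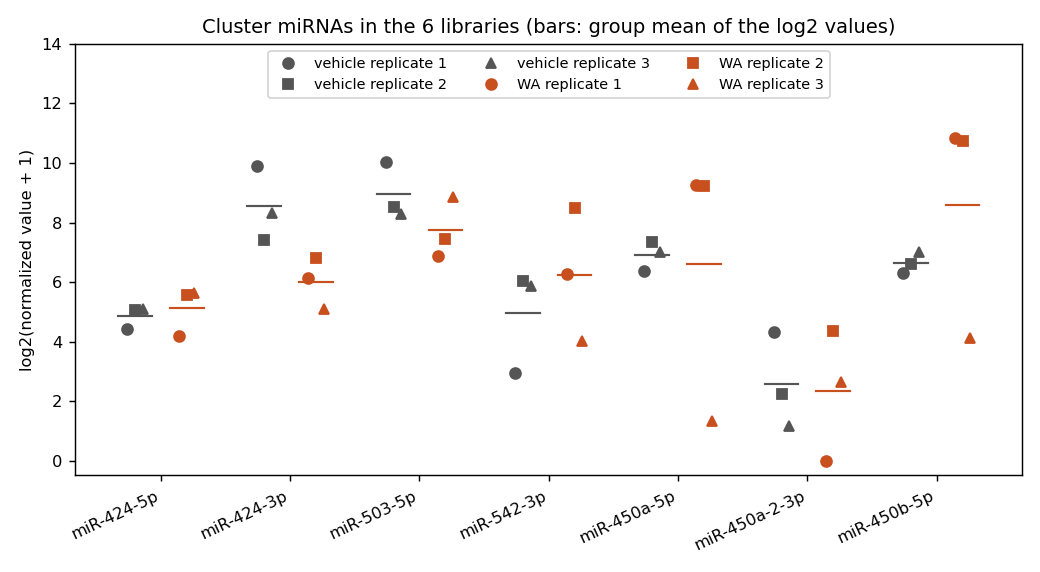
Normalized values of the 7 cluster miRNAs, as log2(value + 1), in the 3 vehicle libraries (grey) and the 3 WA libraries (orange), with the replicate given by the symbol and the group mean of the log2 values by a bar. The WA values of miR-424-3p lie below all vehicle values, and those of miR-450b-5p and miR-450a-5p split into high values in replicates 1 and 2 and a low value in replicate 3.

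hsa-miR-424-3p, the arm of MIR424 usually held to be the passenger strand, reached a normalized value of 947 in vehicle replicate 1, 171 in replicate 2 and 318 in replicate 3, against 69.6, 111 and 33.1 in the WA libraries in the same order. These rest on 699, 599 and 1040 reads in vehicle and on 12, 62 and 44 reads in WA. Every WA value was below every vehicle value, although vehicle replicate 1 was well above the other vehicle libraries. The mean was 479 ± 412 (SD, n = 3) in vehicle and 71.1 ± 38.9 (SD, n = 3) in WA. The log2 fold change on the log2(value + 1) scale was -2.53 (SE 1.04), with an adjusted p of 0.176 by limma. The exact permutation test, two-sided, gave p = 0.1, which is the smallest that 3 against 3 libraries allow. WA below vehicle with no overlap was also found for 19.6% of all tested miRNAs, and 27.2% did not overlap in either direction, so this pattern was common in these libraries. When single libraries were removed, its log2 fold change stayed between -3.09 and -1.86, and the adjusted p by limma between 0.0967 and 0.431.

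hsa-miR-503-5p is counted in the miR-15/16 family, although its seed differs from that of miR-424-5p by A8G. It had normalized values of 1059, 368 and 309 in vehicle and 116, 175 and 466 in WA. WA replicates 1 and 2 were below all vehicle libraries, and WA replicate 3 lay between them. The group means were 579 ± 417 and 252 ± 187 (SD, n = 3 each), with a log2 fold change of -1.22 (SE 0.902) and an adjusted p of 0.410 by limma. Without WA replicate 3 the log2 fold change was -1.79, with an adjusted p of 0.0904 by limma. It was -0.67 without vehicle replicate 1 (adjusted p 0.579 by limma) and -0.79 without WA replicate 1 (adjusted p 0.773). In each WA library, the vehicle mean was 4.99, 3.31 and 1.24 times the WA value. Because each library holds RNA of a whole culture, less of a miRNA per cell and fewer cells that hold it cannot be told apart.

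hsa-miR-424-5p, which carries the miR-15/16 seed itself, was much less abundant, at 20.3, 32.6 and 33.0 in vehicle and 17.4, 46.5 and 48.8 in WA. The WA replicate 1 value rests on 3 reads, and its 95% Poisson interval, from 3.59 to 50.8, covers all other libraries. The groups overlapped, with WA replicate 1 below the vehicle values and the other two WA libraries above them. The log2 fold change was 0.28 (SE 1.13), with a 95% interval from -2.37 to 2.92 and an adjusted p of 0.885 by limma. It turned negative, to -0.85, in a single random draw that thinned all libraries to the size of the smallest.

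**Figure D2:**
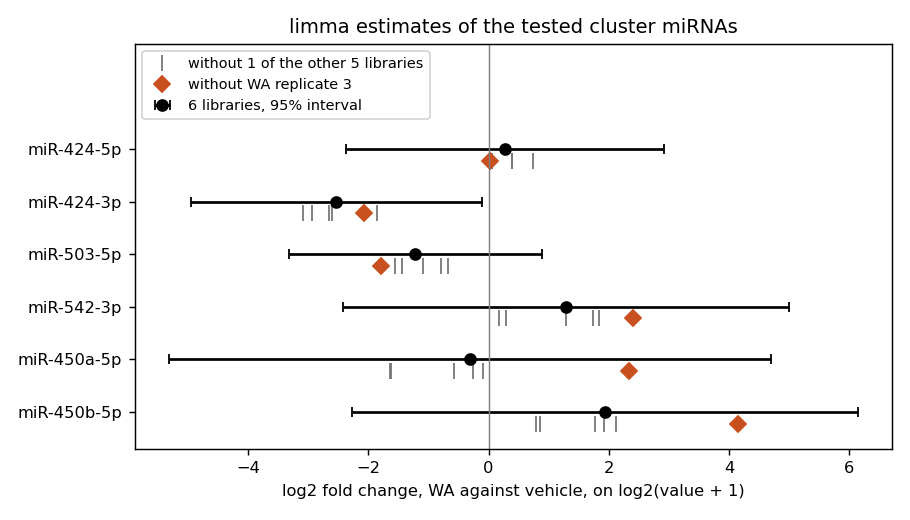
Log2 fold change of WA against vehicle, on log2(value + 1), for the 6 tested cluster miRNAs, by limma with all 6 libraries (black points, 95% interval), without WA replicate 3 (diamonds) and without each of the other libraries (ticks). All intervals but that of miR-424-3p cross 0, and the diamonds of miR-450b-5p and miR-450a-5p, at 4.16 and 2.34, stand apart from the ticks.

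The share of the 5p arm of MIR424 was higher in each of the 3 WA libraries than in any vehicle library. In vehicle replicates 1 to 3, miR-424-5p made up 2.10%, 16.0% and 9.41% of the miR-424 reads. In WA replicates 1 to 3 it made up 20.0%, 29.5% and 59.6%. The 3p arm was the more abundant in 5 of the 6 libraries, with WA replicate 3 as the exception, where there were 65 reads of 5p among 109. The lowest WA share, in replicate 1, rests on 15 reads, and its 95% Wilson interval from 7.05% to 45.2% takes in the highest vehicle share. Such intervals cover counting error only.

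On the log2((5p + 1)/(3p + 1)) scale, which no scaling by library can change except through the added 1, the means were -3.69 ± 1.61 in vehicle and -0.88 ± 1.28 in WA (SD, n = 3 each). The difference was 2.81, with p = 0.1 by the exact permutation test, two-sided, the smallest possible, and it lay between 1.92 and 3.48 when single libraries were removed. Among 80 hairpins with both arms tested, 9 (11.2%) had all WA ratios above all vehicle ratios, 12 had them below and 26.2% fell in either class, and the median difference was 0.17. By its difference MIR424 ranked 11 of these 80. Some of the ratios of other hairpins were set by the added 1, because an arm or both arms had a value of 0 in some libraries. The shares and the rank rest in part on such hairpins. Of the arms, 3p had the log2 fold change of -2.53 and 5p that of 0.28.

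**Figure D3:**
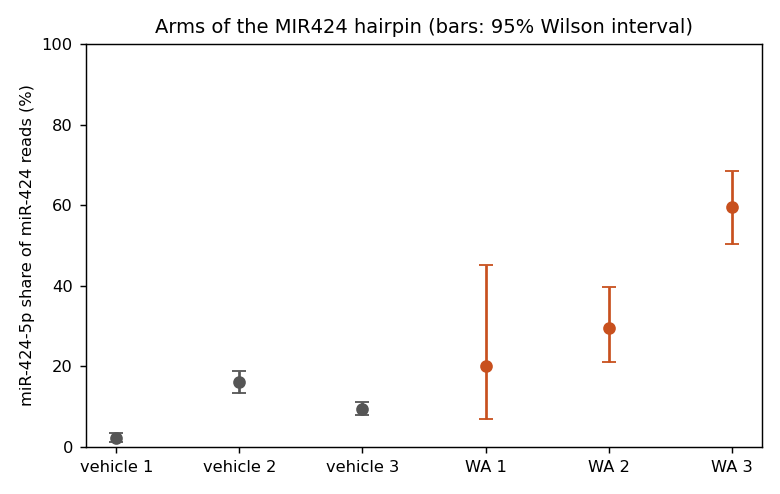
Share of miR-424-5p among all reads of both MIR424 arms in each library, in percent, with 95% Wilson intervals as bars (vehicle grey, WA orange). The shares were 2.10% to 16.0% in vehicle and 20.0% to 59.6% in WA, and the wide bar of WA replicate 1 reflects 15 reads.

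At the other end of the cluster, hsa-miR-450b-5p had the widest spread between WA libraries in normalized value. It was at 78.6, 96.2 and 127 in vehicle replicates 1 to 3 and at 1844, 1713 and 16.5 in WA replicates 1 to 3. WA replicates 1 and 2 thus stood 18.3 and 17.0 times above the vehicle mean, whereas in WA replicate 3 the vehicle mean was 6.09 times the WA value. These values rest on 318, 959 and 22 reads in WA, and WA replicate 3, where the value was low, had the largest total of the WA group. The group means were 101 ± 24.6 and 1191 ± 1019 (SD, n = 3 each), and the log2 fold change was 1.93 (SE 1.80), with an adjusted p of 0.496 by limma. Without WA replicate 3 it was 4.16, with an adjusted p of 0.00151 by limma. Without WA replicate 1 or 2 it was 0.80 or 0.85.

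hsa-miR-450a-5p followed the same division. Its normalized values were 82.6, 162 and 128 in vehicle and 615, 604 and 1.50 in WA. WA replicates 1 and 2 were 4.94 and 4.85 times the vehicle mean of 124, and WA replicate 3 held 2 reads. The vehicle mean was 82.8 times that last value, with a counting interval of the ratio from 22.9 to 684. The log2 fold change was -0.31 (SE 2.14), with an adjusted p of 0.929 by limma. It changed sign to 2.34 without WA replicate 3, with an adjusted p of 0.0171 by limma, and to 0.33 with a pseudocount of 10.

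The pattern of these miR-450 arms, above all vehicle libraries in WA replicates 1 and 2 and below all of them in WA replicate 3, was found for 25 of the 327 tested miRNAs, or 7.65%, among them 2 of the 6 of the cluster. Without WA replicate 3, 147 tested miRNAs (45%) passed an adjusted p under 0.05 by limma. That set held 32 miRNAs (9.79%) higher in WA, miR-450b-5p and miR-450a-5p among them. Both miR-450 sequences are poor in G and C, at 27.3% and 31.8%, against a median of 50% over the 295 tested miRNAs with a sequence. Across those 295 miRNAs, the Pearson correlation of GC content with the log2 difference from the vehicle mean was -0.295, -0.297 and -0.174 in WA replicates 1 to 3, a description over miRNAs that share a library. Of the 20 tested miRNAs with a GC content no higher than that of miR-450a-5p, 7 had the same pattern, and 5 of 18 when miR-450a-5p and miR-450b-5p themselves are left out. The part of GC content in the miR-450 values was not tested.

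hsa-miR-542-3p, from the hairpin between the 2 ends, had normalized values of 6.77, 65.1 and 57.2 in vehicle and 75.4, 354 and 15.0 in WA. WA replicates 1 and 2 were above all vehicle libraries, as for the miR-450 arms, but WA replicate 3 lay within the vehicle range. The vehicle replicate 1 value rests on 5 reads and the WA replicate 1 value on 13. The log2 fold change was 1.29 (SE 1.59), with an adjusted p of 0.609 by limma, and 2.41 without WA replicate 3, with an adjusted p of 0.176 by limma. It fell to 0.17 without WA replicate 2 and to 0.29 without vehicle replicate 1.

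hsa-miR-450a-2-3p, the opposite arm of MIR450A2, stayed below the filter and was not tested. It had 14, 13 and 4 reads in vehicle and 0, 11 and 7 in WA, which gave normalized values of 19.0, 3.71 and 1.22 against 0, 19.7 and 5.26. The 0 in WA replicate 1 allows a normalized value of up to 17.4, close to the highest value in vehicle. Because reads of miR-450a-5p can also come from MIR450A1, its ratio to this arm is not confined to a single hairpin, unlike that of MIR424. The log2 ratio of miR-450a-5p to this arm was 2.07, 5.11 and 5.86 in vehicle and 4.87 and -1.32 in WA replicates 2 and 3. In WA replicate 1 it was 5.06 with the 0 set to its limit of 3 reads, which is a lower bound, and the groups overlapped. The difference with that bound was -1.48, with p = 0.5 by the exact permutation test, two-sided. With the 0 kept, where the added 1 sets the ratio, it was -0.08, with p = 1 by the same exact test.

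Together the 7 miRNAs made up 2299, 659 and 759 CPM in vehicle and 3017, 2995 and 349 CPM in WA. As shares of all reads of the table in WA, these were 0.302% (95% Wilson interval 0.276% to 0.330%), 0.300% (0.286% to 0.314%) and 0.0349% (0.0326% to 0.0375%). The summed level was thus above all vehicle libraries in WA replicates 1 and 2 and below them in WA replicate 3.

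The composition of the cluster reads separated the same libraries. The miR-450 and miR-542 miRNAs held 8.45%, 36.4% and 32.2% of the cluster reads in vehicle. They held 92.6% and 89.0% in WA replicates 1 and 2 and 6.54% in WA replicate 3. miR-450b-5p alone made up 3.55% to 13.1% in vehicle, 67.4% and 56.7% in WA replicates 1 and 2, and 2.82% in WA replicate 3. The miR-424 and miR-503 end thus held most of the cluster reads in WA replicate 3 and in all 3 vehicle libraries.

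**Figure D4:**
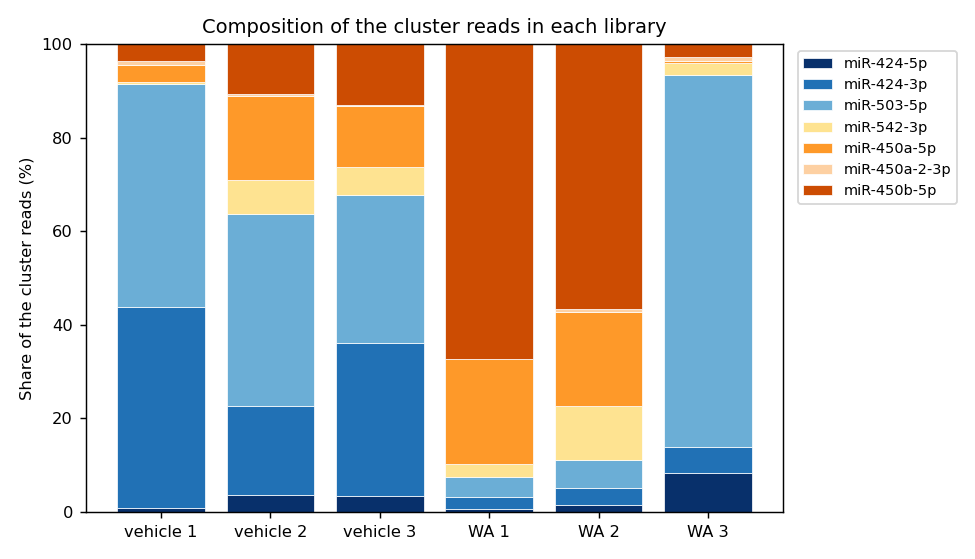
Share of each of the 7 miRNAs in the cluster reads of each library, in percent, with miR-424 and miR-503 in blue and miR-542 and miR-450 in yellow to brown. Yellow to brown takes 92.6% and 89.0% of WA replicates 1 and 2, 6.54% of WA replicate 3 and 8.45% to 36.4% of the vehicle libraries.

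By mean normalized value in vehicle, the order was miR-503-5p, miR-424-3p, miR-450a-5p, miR-450b-5p, miR-542-3p, miR-424-5p and miR-450a-2-3p. miR-503-5p and miR-424-3p overlapped, as did miR-450a-5p and miR-450b-5p, and miR-542-3p and miR-424-5p. The steps between these pairs, and from miR-424-5p to miR-450a-2-3p, were not overlapped by any vehicle library. In WA the order by mean was miR-450b-5p, miR-450a-5p, miR-503-5p, miR-542-3p, miR-424-3p, miR-424-5p and miR-450a-2-3p, and the values of all neighbours overlapped. Among all 413 miRNAs ranked by mean, miR-424-3p went from rank 118 in vehicle to 214 in WA, and to 171 without WA replicate 3. miR-450b-5p went from rank 198 to 72, and to 51 without WA replicate 3, in which alone its rank was 269.

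Across the 6 libraries, log2(value + 1) of miR-450b-5p and miR-450a-5p correlated at Pearson r = 0.889, and miR-503-5p and miR-450b-5p at r = -0.792. The arms of MIR424 had r = -0.442. With 3 vehicle and 3 WA libraries behind each, these are descriptions only. Outside the cluster, the miRNAs most like miR-450b-5p were miR-1248 (r = 0.992), miR-203a-3p (r = 0.979) and miR-1291 (r = 0.978). Those most like miR-503-5p were miR-183-3p (0.989), miR-885-5p (0.983) and miR-181b-5p (0.979). For miR-424-3p they were miR-877-5p (0.976), miR-320a-3p (0.929) and miR-550a-5p (0.919), and for miR-424-5p miR-378a-5p (0.952), miR-210-3p (0.836) and miR-148b-3p (0.726). A value of r over 0.9 was shared by 21 tested miRNAs for miR-503-5p and 19 for miR-450b-5p, so the first named stand close to many others.

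All 5 other miR-15/16 miRNAs set beside miR-424-5p and miR-503-5p were tested, and each has the seed AGCAGCA of miR-424-5p. In this group 0 of 5 passed an adjusted p under 0.05 by limma, beside 5.5% of all tested miRNAs. The median log2 fold change was 2.10, that of miR-15b-5p, beside -0.91 over all. Values of miR-15b-5p were 10808, 187 and 252 in vehicle and 2957, 2912 and 4658 in WA. All its WA values thus lay within the vehicle range, with an adjusted p of 0.393 by limma. The log2 fold change of miR-16-5p was 4.10, with an adjusted p of 0.0678 by limma, and 3.19 without WA replicate 3, with an adjusted p of 0.0246. That of miR-15a-5p was 3.60, with an adjusted p of 0.0837 by limma, and 3.47 without WA replicate 3, with an adjusted p of 0.00699. Both thus passed the threshold without that library, where 45% of all tested miRNAs passed and 9.79% passed as higher in WA. miR-195-5p had values of 39.3, 30.8 and 26.0 in vehicle and 75.4, 141 and 70.6 in WA, above all vehicle libraries, with a log2 fold change of 1.50 and an adjusted p of 0.393 by limma. miR-497-5p, made from the same precursor cluster as miR-195, had 25.7, 34.6 and 32.7 in vehicle and 0, 17.9 and 81.9 in WA, with a log2 fold change of -1.45 and an adjusted p of 0.601 by limma. Like miR-503-5p, it was below all vehicle libraries in WA replicates 1 and 2, and in WA replicate 3 it was above them. WA was above vehicle without overlap for 3 of the 5, miR-15a-5p, miR-16-5p and miR-195-5p, beside 7.65% of all tested miRNAs.

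The neighbouring cluster that runs from miR-106a to miR-363 lies 369906 bases away on the same chromosome. Of the 10 miRNAs listed for it, 1 was in the table, miR-106a-5p, at 28.4, 5.71 and 4.28 in vehicle and 11.6, 0 and 90.9 in WA. The highest of its 6 values was in WA replicate 3, where the miR-450 5p arms were at their lowest. Of the 30 other miRNAs whose hairpins all lie on chromosome X, 24 were tested, with a median log2 fold change of 0.17 beside -0.91 over all tested miRNAs. Among these, 0 rose and 1 fell at an adjusted p under 0.05 by limma, beside 5.5% called over all. At an unadjusted p under 0.05 by limma, 0 rose and 3 fell, beside 21.7% of all tested miRNAs that fell. The pattern of the miR-450 5p arms was found for 2, beside 7.65% over all.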

How the data were processed

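Small RNA libraries of vehicle-treated and WA-treated MDA-MB-231 cells (n = 3 each) were used as grouped by the labels. The authors trimmed reads with Trim Galore, aligned them with Bowtie 1.1.1 to GRCh38.p10, discarded reads of other noncoding RNA classes and compared what remained with miRBase 22 by ncbi-blast 2.2.30. The signal deposited for each miRNA in a library is, per the authors' use of DESeq2, a read count divided by a size factor. How reads shared by similar miRNAs were counted is not given in the sources used here. Columns of the authors' own comparison, not used here, hold a deposited ratio on the linear scale, its log2 value, the p-value and its adjusted form.

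Values moved in 1 step size per library, with 100% at whole steps within a tolerance of 0.01 step, and 1 step is taken as 1 read for reads and CPM. Because the values are normalized, no count model was run. limma 3.58.1 in R 4.3.3 was fitted to log2(normalized value + 1) of 327 miRNAs, two-sided, with the variance trend and Benjamini-Hochberg adjustment. Single values and arm ratios were compared by exact permutation tests. An exact test planned for the summed level is not reported, since the miRNAs in the sum were chosen with earlier results known. Wilson and Poisson intervals are at 95%, and the limit set by a count of 0 is 3 reads. Python 3.11.15 with scipy 1.17.1, numpy 2.4.6 and pandas 2.3.3 served for the rest. Sequences came from RefSeq (GRCh38.p14), matched by name for 368 of 413 miRNAs, and positions from GENCODE release 44.

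The miRNAs and lists were chosen with earlier results of these data known. The miRNAs named are all rows of the cluster, the 3 most correlated tested miRNAs for each of miR-424-5p, miR-424-3p, miR-503-5p and miR-450b-5p, the miRNAs sharing a seed, the neighbouring cluster, and from the marker lists miR-143-3p, miR-145-5p, miR-486-5p and miR-122-5p. Alternatives were other scalings, pseudocounts and filters, no variance trend, thinning all libraries to the smallest total, a block on the replicate number, each library left out and, added after seeing the data, a 0 in an arm ratio set to its limit. Thinning was a single random draw.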

Additional observations from a re-analysis of the deposited data

How the results depend on the processing

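The count of called miRNAs over the whole table depended on the settings. It was 18 as reported, 0 with upper-quartile scaling (78 at an unadjusted p under 0.05 by limma), 7 with a pseudocount of 0.1 or of 10, 53 with no filter, 0 of 173 tested with a value of 10 in every library (29 unadjusted), and 0 to 147 with each library left out. It was 0 without vehicle replicate 2 or 3 or WA replicate 1 or 2 (46 to 52 unadjusted) and 147 without WA replicate 3. The count of called cluster miRNAs was 0 to 2 with each library left out, reaching 2 without WA replicate 3, and 0 under the other alternatives. The median log2 fold change over all tested miRNAs was -0.91 as reported, -0.62 with upper-quartile scaling and -0.61 with a pseudocount of 10. It was -1.31 with no filter and -0.10 with a value of 10 in every library. That last filter left 4 cluster miRNAs, so the cluster median of -0.01 over 6 is not set beside it. miR-424-3p, miR-503-5p and miR-542-3p kept their direction under every alternative in which they were tested, as did miR-450b-5p, which ran from 0.80 to 4.16 and was called without WA replicate 3. miR-424-5p turned to -0.85 on thinning, and miR-450a-5p to 0.33 with a pseudocount of 10 and 2.34 without WA replicate 3, its range over single libraries removed being -1.64 to 2.34. The miR-450a arm difference, -0.08 with the 0 kept, turned to 0.55 and 0.33 with pseudocounts of 0.1 and 10, and lay between -2.57 and 2.72 when single libraries were removed, rising to 0.31, 0.68 and 2.72 without vehicle replicate 2, vehicle replicate 3 and WA replicate 3. The log2 difference of the summed level, 0.49, lay between -0.03 and 1.52 when single libraries were removed. The cause was not tested.

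The replicate numbers share no stated batch, and deviations of same-numbered libraries correlated at -0.07, 0.06 and -0.09. With the replicate block 24 miRNAs were called, none of them of the cluster (miR-424-3p, unadjusted p = 0.0927 by limma). The 2 planned count-based tests were not run because the values are normalized. With 12 or fewer reads behind some WA values, depth limits WA replicate 1 most.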
